A study of Xenopus laevis with 20 samples.

Results

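The gene rax, called Xrx1 when it was first studied in the frog, was followed through its 2 homeologous copies in Xenopus laevis, rax.L and rax.S. Homeologs are the paired copies of a gene that this allotetraploid frog carries on its long (.L) and short (.S) chromosome sets. The members were chosen by the gene symbol of the array's platform annotation alone, which gave 2 of the 7531 genes named there and 3 of 15491 gene probe sets. They are 1 probe set of rax.L and 2 of rax.S, each taken by that annotation from a different sequence record. A probe set is a group of short oligonucleotides on the array that together give 1 value for a transcript. The rax.S probe sets are called S1 and S2 below, since their names end in S1_at and S2_at.

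Rax is a paired-type homeobox transcription factor that marks the eye field, the single patch of anterior neural plate from which both retinas form. Loss of Rax function leaves vertebrate embryos with reduced eyes or none, and extra Rax enlarges or duplicates retinal tissue. The factor acts in a network with Pax6, Six3, Six6, Lhx2, Tbx3, Nr2e1 and Otx2, and its transcription in the frog was reported to be driven by Otx2 and Sox2 acting on a shared enhancer.

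RNA of whole early neurulae (stage 13) was measured on 20 Affymetrix arrays with 1 colour each. By label, 10 arrays held uninjected sibling embryos (controls 1 to 10), 5 held embryos that had received synthetic wild-type Xrx1 mRNA (mRNA 1 to 5) and 5 held embryos that had received MoXrx1, an antisense morpholino oligonucleotide against Xrx1 (morpholino 1 to 5). Both dorsal blastomeres of the injected embryos were injected at the 4-cell stage, with GFP (green fluorescent protein) mRNA added to trace the injected cells. The labels and the design text disagree on doses. They give the Xrx1 mRNA as 50 pg and as 50 ng, the GFP mRNA as 400 pg and as 400 ng, and the morpholino as 1 pM, as 10 pg and as 0.5 pmol. Injected embryos were selected by where they fluoresced. The controls received no injection at all, so injection and GFP mRNA as such cannot be told apart from the Xrx1 reagents. Each array held RNA pooled from 3 embryos per the labels, whereas the design text speaks of single embryos. Parentage is not given, so a p-value here reflects only how far these arrays spread, which may be technical.

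The deposited values are log2 expression values, and a difference of 1 is a doubling. A probe set with a log2 value above 4 in at least 5 arrays was tested, which kept 10435 of 15491, rax.L and both rax.S probe sets among them. Values above log2 4 were found for rax.L in 17 of 20 arrays, for rax.S S1 in 13 and for rax.S S2 in 7. S2 was above log2 4 in all of controls 1 to 5 and would not have passed the filter without them. A test of S2 against these controls therefore cannot weigh a fall, and below log2 4 the size of a difference is uncertain. In bulk RNA of whole embryos, fewer rax-expressing cells and less rax RNA per cell cannot be told apart. The sources used here give neither the sequence of the injected mRNA nor the bases that each probe set matches, so injected and endogenous rax RNA cannot be told apart either.

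The tracer went against the labels in 8 arrays. The array's control probe set AFFX-Xl-M62653-1_s_at was above log2 8 in mRNA arrays 1 to 5 and below it in controls 1 to 5. In the other 10 arrays, controls 6 to 10 and morpholino 1 to 5, it was above log2 8 in controls 6 to 9 and morpholino 5 and below it in control 10 and morpholino 1 to 4. The arrays kept the groups of their labels in every test. The direction of any comparison with controls 6 to 10 or with the arrays labelled morpholino is unsettled, and tracer state, read from the arrays rather than from the labels, is given below as a description with no test. Markers of neural plate, epidermis, mesoderm, endoderm and neural crest were present in the whole embryos: 21 of 24 probe sets lay above log2 4 in every array. The exceptions were both ncam1 probe sets and snai2.S. Some of these markers ran with the mRNA label: in the paired fit described below, 4 of 4 epidermis markers were below 0 (median log2 difference -0.69) and 4 of 4 markers of paraxial mesoderm and muscle above 0 (median 0.73), against a median of 0.03 over all probe sets, and none of them passed. In the other 10 arrays 3 of 5 neural crest markers were lower with the tracer above log2 8 without overlap, as 2.87% of all probe sets were. So were 1 of 4 tested neural plate markers (ncam1.S) and 1 of 2 axial mesoderm markers (shh.L). The other axial mesoderm marker, tbxt.S, was higher without overlap, as 2.81% of all probe sets were. Markers of epidermis, of paraxial mesoderm and muscle, and of endoderm all overlapped there. The part of these markers in the rax values was not tested.

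In embryos injected with Xrx1 mRNA, rax.L and rax.S S1 did not move together. The rax.L probe set was lower than in controls 1 to 5 and rax.S S1 was higher, each in 5 of 5 pairs of arrays with the same number. How many of all probe sets did so in 5 of 5 pairs was not counted. S2 was lower in 5 of 5 pairs too, but it would not have passed the filter without these controls, so its fall carries no weight. The fall of rax.L passed the test over all probe sets in the paired fit, which keeps same-numbered arrays together, and the differences of the rax.S probe sets did not. Against all 10 controls none of the 3 rax probe sets passed.

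Values of rax.L were 6.93, 6.73, 8.38, 6.68 and 6.78 in controls 1 to 5. They were at 4.00, 4.62, 5.09, 3.09 and 5.23 in mRNA arrays 1 to 5. Every mRNA array lay below every one of these controls, with control 3 the highest of all 20 arrays and mRNA 4 the lowest. The mean of the controls was 7.10 ± 0.72 and that of the mRNA arrays was 4.41 ± 0.88 (SD, n = 5 each). In the paired fit rax.L fell by 2.69 ± 0.29 (SE) on the log2 scale (limma, adjusted p = 0.0357), with single pairs from -3.59 to -1.55. It was 1 of 3 rax probe sets called there, against 7 of 10435 in all (0.0671%), all of them lower. The call was lost without pair 1 (limma, adjusted p = 0.146), pair 2 (0.0961), pair 3 (0.155) or pair 4 (0.111), and without a filter (0.135). It also depended on pairing by number, a choice made from these same data. With controls 1 to 5 and no block the difference was again -2.69 but did not pass (limma, adjusted p = 0.363). With all injected arrays in that fit the adjusted p was 0.481 (limma), and with the array set as a block it was 0.294 (limma). Groups without overlap, the mRNA arrays being lower, were found for 0.412% of all probe sets.

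The rax.S S1 probe set was at 4.93, 5.14, 5.68, 4.72 and 5.07 in controls 1 to 5. It was at 6.28, 7.65, 7.14, 5.53 and 6.15 in mRNA arrays 1 to 5. All mRNA arrays but mRNA 4 lay above every control of this set, and mRNA 4 lay below control 3. The pairs ran from 0.81 to 2.52, and their mean difference of 1.44 ± 0.23 (SE) did not pass the test (limma, adjusted p = 0.159).

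The rax.S S2 probe set was at 4.32, 5.87, 6.03, 4.15 and 4.20 in the same controls. It was at 3.04, 3.48, 4.42, 2.91 and 3.86 in mRNA arrays 1 to 5. The groups overlapped only through mRNA 3, the one mRNA array above log2 4. The paired difference was -1.37 ± 0.26 (SE; limma, adjusted p = 0.171), with pairs from -2.39 to -0.34. Since S2 would not have passed the filter without these controls, this test cannot weigh its fall.

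**Figure D1:**
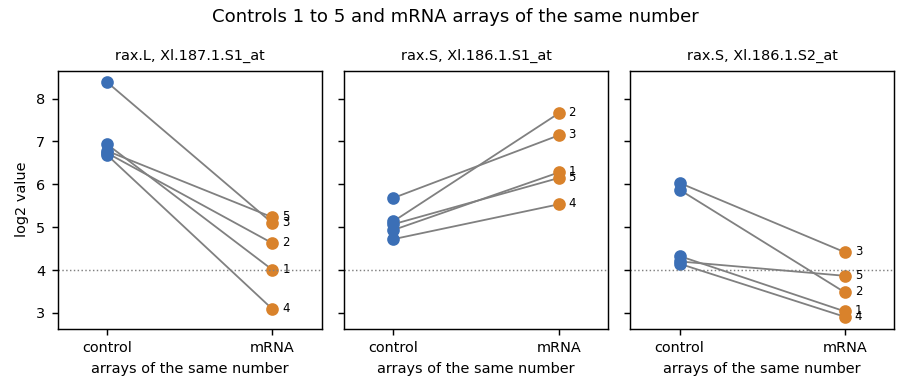
Log2 values (y axis) of the 3 rax probe sets in controls 1 to 5 and in mRNA arrays of the same number (x axis), with a line for each pair and the number beside the mRNA array. All 5 lines fall for rax.L and for rax.S S2, and all 5 rise for rax.S S1. The dotted line marks log2 4.

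Against all 10 controls, as the labels define them, 0 of 3 rax probe sets passed, as did 0 of 10435 (0%), while 2124 probe sets (20.4%) had an unadjusted p under 0.05. The rax.L difference was -1.70 ± 0.64 (SE; limma, adjusted p = 0.151), that of rax.S S1 was 2.41 ± 0.48 (adjusted p = 0.0702) and that of rax.S S2 was -0.59 ± 0.44 (adjusted p = 0.459). With array weights rax.L and S1 passed (limma, adjusted p = 0.0315 and 0.0101), where 1242 of 10435 probe sets were called. S1 also passed with a trended, robust variance (limma, adjusted p = 0.0437), where 20 of 10435 were called. Because mRNA 4 lay below control 3, S1 was not among the 0.172% of probe sets with every mRNA array above every control. Without the 8 arrays whose tracer went against the label, the differences were -2.61 ± 0.41 for rax.L, 1.76 ± 0.44 for S1 and -1.11 ± 0.47 for S2 (limma, adjusted p = 0.122, 0.567 and 0.635). Exact two-sided permutation tests of the group labels gave, unadjusted and for all 10 controls, p = 0.03 for rax.L, 0.000999 for S1 and 0.269 for S2.

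Unequal change of rax.L and rax.S S1 was measured as the difference between 2 probe sets within the same array. It was compared between groups by exact permutation with adjustment over 9 such comparisons. A change of 1 probe set alone can shift this difference, so the test cannot show movement in opposite directions. The offset between 2 probe sets carries no meaning by itself, since their affinities differ, and only its change between groups is read. The rax.L minus rax.S S1 difference was 2.00, 1.59, 2.70, 1.96 and 1.71 in controls 1 to 5. It was -2.27, -3.03, -2.05, -2.45 and -0.92 in mRNA arrays 1 to 5. The groups did not overlap, and mRNA 5 was the mRNA array nearest to the controls. The group means differed by -4.13 (p = 0.00794, exact, two-sided, the smallest p this arrangement allows, and adjusted p = 0.0179). Against all 10 controls, where the mean was 1.96 ± 0.74 (SD, n = 10), the difference was -4.10 (exact permutation, adjusted p = 0.0015).

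Both calls for rax.L minus S1 held with any 1 array left out. Groups that do not overlap stay apart when 1 array is removed, so this adds no support. With the pairs kept, 5 of 5 pairs were below 0, and flipping signs over 5 pairs gave p = 0.0625 (exact, two-sided), the smallest it allows. S1 itself lay below log2 4 in controls 6 to 10, so the difference against all 10 controls rests partly on low signals. In arrays labelled morpholino the rax.L minus S1 difference changed by 0.27 against all controls (exact permutation, adjusted p = 0.576).

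Differences with S2 were tested in the same way and count among the comparisons behind the adjusted p-values of rax.L minus S1. They are given here as values only, since S2 passed the filter mainly through controls 1 to 5. S2 lay below log2 4 in 4 of 5 mRNA arrays and in all of controls 6 to 10, so no conclusion is drawn from its tests. Within arrays, S1 minus S2 averaged 0.19 ± 0.69 in controls 1 to 5 and 3.01 ± 0.74 in mRNA arrays (SD, n = 5 each). The rax.L minus S2 difference averaged 2.18 ± 0.75 in these controls and 0.87 ± 0.46 in mRNA arrays (SD, n = 5 each). The S1 minus S2 values of the groups did not overlap, whereas for rax.L minus S2 they did.

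**Figure D2:**
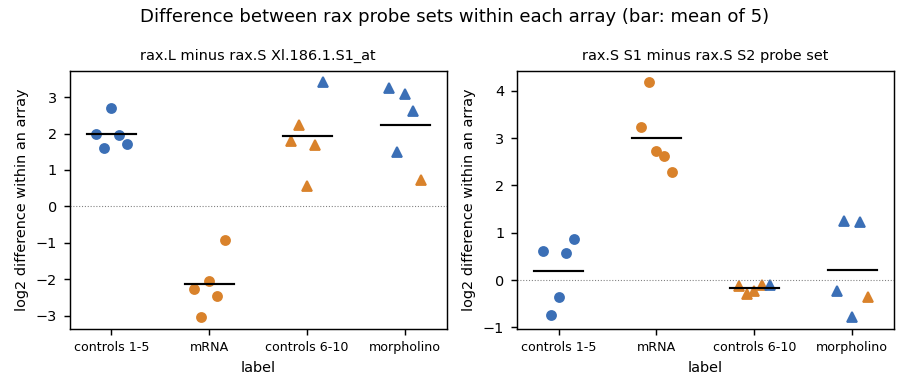
Log2 difference between 2 rax probe sets within each array (y axis) by label (x axis), rax.L minus rax.S S1 on the left and rax.S S1 minus rax.S S2 on the right; points are arrays, coloured by tracer state, and bars are means of 5. The mRNA arrays lie below all others on the left and above all others on the right.

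One measure of RNA quality moved with the mRNA label. The 3′ minus 5′ log2 difference, averaged over the 4 control transcripts that have both probe sets, ran from 0.32 to 3.00 in controls 1 to 5 (median 1.29) and from 1.80 to 3.92 in mRNA arrays (median 2.50). The groups overlapped. In the other 10 arrays it ran the other way by tracer state, from 0.39 to 1.44 where the tracer was above log2 8 (median 0.76) and from 0.92 to 2.44 where it was below (median 1.31). The rax.L values were lower with the tracer in both sets, as described below. The part of RNA quality in the rax values was not tested.

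In the second set of 10 arrays, the rax.L values followed the tracer and not the labels. Its values were 5.01, 5.38, 3.78, 4.76 and 6.61 in the arrays labelled control 6 to 10. They were at 6.45, 6.46, 7.10, 7.21 and 3.73 in morpholino 1 to 5. By label the groups overlapped, with control 10 lying among the arrays labelled morpholino and morpholino 5 lying below all 5 controls. By tracer state they did not overlap: the 5 arrays with the tracer above log2 8 ran from 3.73 to 5.38 and the 5 below it ran from 6.45 to 7.21.

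Over all 20 arrays rax.L ran from 3.09 to 5.38 (median 4.69) where the tracer was above log2 8 and from 6.45 to 8.38 (median 6.75) where it was below. No array overlapped. The 10 arrays above comprised all 5 mRNA arrays, 4 arrays labelled control and 1 labelled morpholino. Of 10435 probe sets, 3 (0.0287%) were lower with the tracer without overlap over all 20 arrays, and 0 were higher. They were rax.L, agr2.S, which encodes a secreted protein of the cement gland, and a probe set without a symbol. Taken in each set apart, 5 probe sets (0.0479%) were lower in both sets, rax.L among them. The medians of rax.L differed between tracer states by -2.15 in the first set and -1.85 in the second. Within the second set alone, 2.87% of probe sets were lower with the tracer without overlap.

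Tracer state did not separate the values of either rax.S probe set without overlap in either set of arrays. S1 was at 3.23, 3.15, 3.22, 3.09 and 3.20 in controls 6 to 10 and at 3.20, 4.97, 4.02, 4.60 and 3.00 in morpholino 1 to 5. Only 3 of these 10 arrays, morpholino 2, 3 and 4, were above log2 4, all with the tracer below log2 8. S2 was at 3.35, 3.44, 3.44, 3.19 and 3.31 in controls 6 to 10 and at 3.42, 3.72, 4.79, 3.38 and 3.37 in morpholino 1 to 5. There only morpholino 3 was above log2 4. By tracer state the S1 medians were 5.07 below and 6.28 above in the first set, and 4.02 below and 3.15 above in the second. In the first set, where tracer state and the mRNA label coincide, S1 ran higher with the tracer, overlapping through mRNA 4. In the second set all 5 tracer-positive arrays lay between 3.00 and 3.23.

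**Figure D3:**
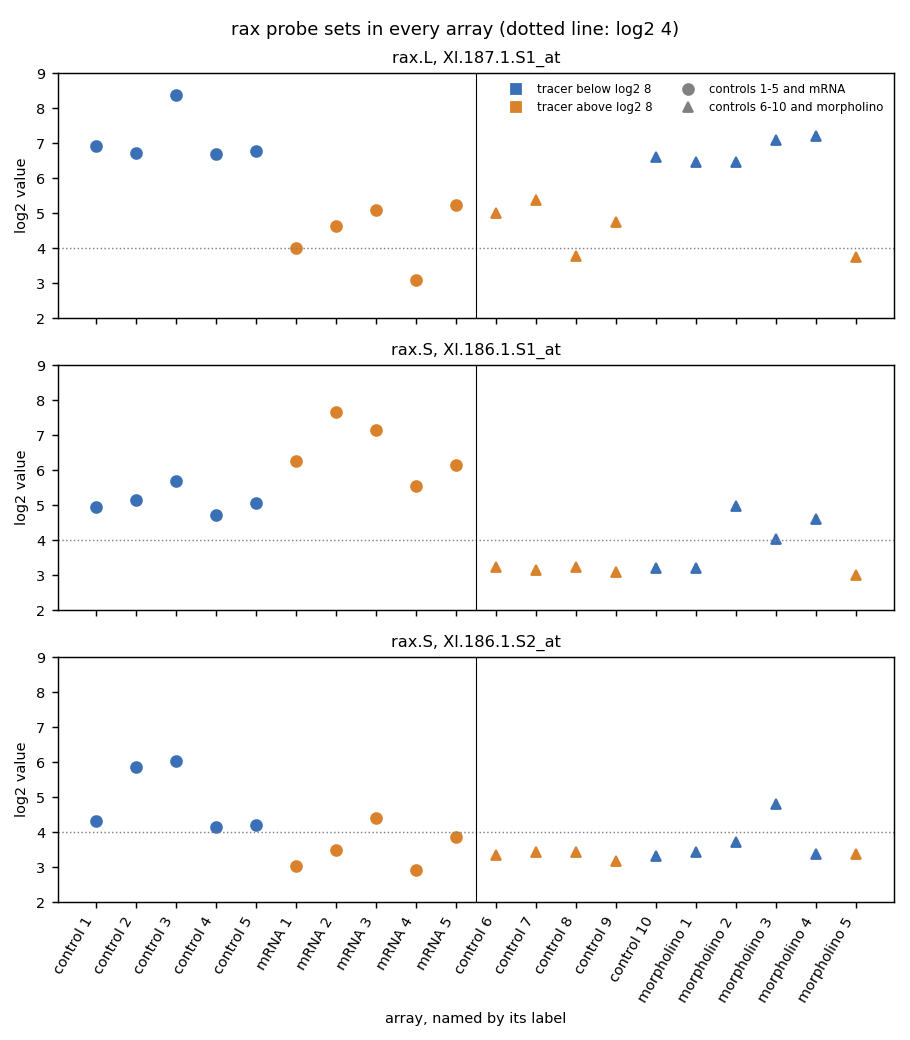
Log2 values (y axis) of rax.L, rax.S S1 and rax.S S2 in each of the 20 arrays (x axis, named by label), coloured by tracer state and with the dotted line at log2 4. For rax.L every orange array (tracer above log2 8) lies below every blue one. For rax.S S1 the highest values are those of mRNA 1, 2, 3 and 5, while mRNA 4 lies below control 3. Most arrays of the second set lie near 3 for S1.

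By label, 0 of 3 rax probe sets passed the test between arrays labelled morpholino and all 10 controls, and 0 of 10435 did (0%; 928 probe sets, 8.89%, had an unadjusted p under 0.05). The difference was 0.09 ± 0.64 (SE) for rax.L, -0.18 ± 0.48 for S1 and -0.40 ± 0.44 for S2 (limma, adjusted p = 0.977, 0.926 and 0.802). Morpholinos bind their target RNA and usually block its translation or splicing without destroying it. The fit without the 8 arrays kept only morpholino 5 of its group, which was 3.28 lower in rax.L than controls 1 to 5 and 10. Controls 1 to 5 belong to the first set of arrays and morpholino 5 to the second. Only control 10, at 6.61 against 3.73 in morpholino 5, shares its set, so 1 control alone separates label from set there. Label and tracer state cannot be told apart in this fit. Morpholino 5, as a lone array, was assumed to vary like the other groups. The comparisons of mRNA and of morpholino arrays share their controls.

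Between mRNA arrays and arrays labelled morpholino, rax.S S1 was higher by 2.59 ± 0.56 (SE; limma, adjusted p = 0.0156), 1 of 3 rax probe sets called where 13.3% of all were, and 4.82% of all were higher. The 5 mRNA arrays lay above all 5 others, as happened for 5.65% of probe sets. With the array set as a block the difference was 0.66 (limma, adjusted p = 0.988). The rax.L difference was -1.78 ± 0.73 (limma, adjusted p = 0.0987) and that of S2 was -0.19 ± 0.51 (limma, adjusted p = 0.821). Without morpholino 5, rax.L was called at -2.40 (limma, adjusted p = 0.0362), where 1056 of 10435 probe sets were called, 674 of them lower. Without the 8 arrays, which left morpholino 5 alone in its group, the rax.L difference turned to 0.67.

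Among the controls, level and set moved together for rax.S. Both rax.S probe sets were lower in controls 6 to 10 than in controls 1 to 5 without overlap, S1 at 3.18 ± 0.06 against 5.11 ± 0.36 (SD, n = 5 each) and S2 at 3.35 ± 0.11 against 4.91 ± 0.95. Of all probe sets 6.40% were lower in controls 6 to 10 in this way. S2 would not have passed the filter without controls 1 to 5, so its lack of overlap here carries no weight. Tracer state differs between controls 1 to 5 and controls 6 to 9 as well. Control 10, with the tracer below log2 8 like controls 1 to 5, lay with controls 6 to 9 at 3.20 for S1 and 3.31 for S2. Morpholino 1 to 4, also with the tracer below log2 8, were at 3.20, 4.97, 4.02 and 4.60 for S1. Among arrays with the tracer above log2 8, S1 was lower in the second set without overlap, as 9.67% of probe sets were. With the tracer below log2 8, rax.L ran from 6.68 to 8.38 in the first set and from 6.45 to 7.21 in the second, which overlap. In the same arrays S1 ran from 4.72 to 5.68 and from 3.20 to 4.97, which overlap as well. So did S2, at 4.15 to 6.03 and 3.31 to 4.79.

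The 3 rax probe sets were also poorly tied to each other across arrays. Pearson's correlation of rax.L with S1 was -0.50 over the 10 arrays of the first set and 0.64 over the 10 of the second. With S2 it was 0.85 and 0.44, and S1 with S2 gave -0.30 and 0.41. With the tracer-state means of each set removed, the correlations over 20 arrays were 0.46, 0.54 and 0.41. Points share the array, and values near log2 3 to 4 carry little signal.

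Among named probe sets, the patterns most like that of rax.L belonged to agr2, pax6 and fezf2. Likeness was the smaller of the Pearson correlations in the 2 sets of 10 arrays, both of which hold a split by tracer state. The likest named probe sets were agr2.S (0.95 in both sets), agr2.L (0.94 and 0.94), the brightest pax6.L probe set (0.92 and 0.95), fezf2.L (0.87 and 0.89) and the pax6.L probe set ending in S1_a_at (0.87 and 0.86). Pax6 is an eye field transcription factor, Fezf2 a forebrain zinc finger repressor, and the agr2 genes are markers of the cement gland, a sticky organ that forms just anterior to the neural plate. With the tracer-state means removed, their correlations with rax.L over 20 arrays were 0.83, 0.81, 0.78, 0.63 and 0.50. Likeness exceeded 0.8 for 10 of 10434 other probe sets, and 1 probe set without a symbol ranked above the fifth named one. Ranking by Spearman's correlation kept 3 of these 5.

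The agr2.S probe set shows how closely these values ran with rax.L. It was at 9.35 to 11.35 in controls 1 to 5 (median 9.62) and at 6.24 to 8.89 in mRNA arrays (median 7.80). In the second set it was at 6.52 to 8.15 (median 7.65) with the tracer above log2 8 and at 9.81 to 10.64 (median 10.01) below. As with rax.L, control 3 held the highest value and mRNA 4 the lowest. In the paired fit agr2.S was at -2.27 ± 0.31 (SE; limma, adjusted p = 0.0941) and did not pass.

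The likest pax6.L probe set was at 9.42 to 10.39 in controls 1 to 5 and at 8.55 to 9.55 in mRNA arrays, which overlap. In the second set it was at 9.07 to 9.71 below the tracer threshold and at 7.42 to 8.36 above, which do not. All 5 tested pax6.L probe sets behaved in that way, overlapping in the first set and lower with the tracer in the second. The fezf2.L probe set overlapped in both sets, with medians of 8.04 in controls 1 to 5 and 6.68 in mRNA arrays.

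The most opposite named patterns to rax.L were rbpms2.L (-0.86 and -0.79), which encodes an RNA-binding protein, dda1.L (-0.77 and -0.82), whose product takes part in ubiquitin ligase complexes, and junb.L (-0.76 and -0.83), a subunit gene of the AP-1 transcription factor. The junb.L probe set was 1 of 2 (0.0192% of all) that were higher with the tracer without overlap in both sets, at 4.40 to 6.22 against 3.93 to 4.37 in the first and at 5.26 to 5.85 against 4.55 to 5.09 in the second.

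**Figure D4:**
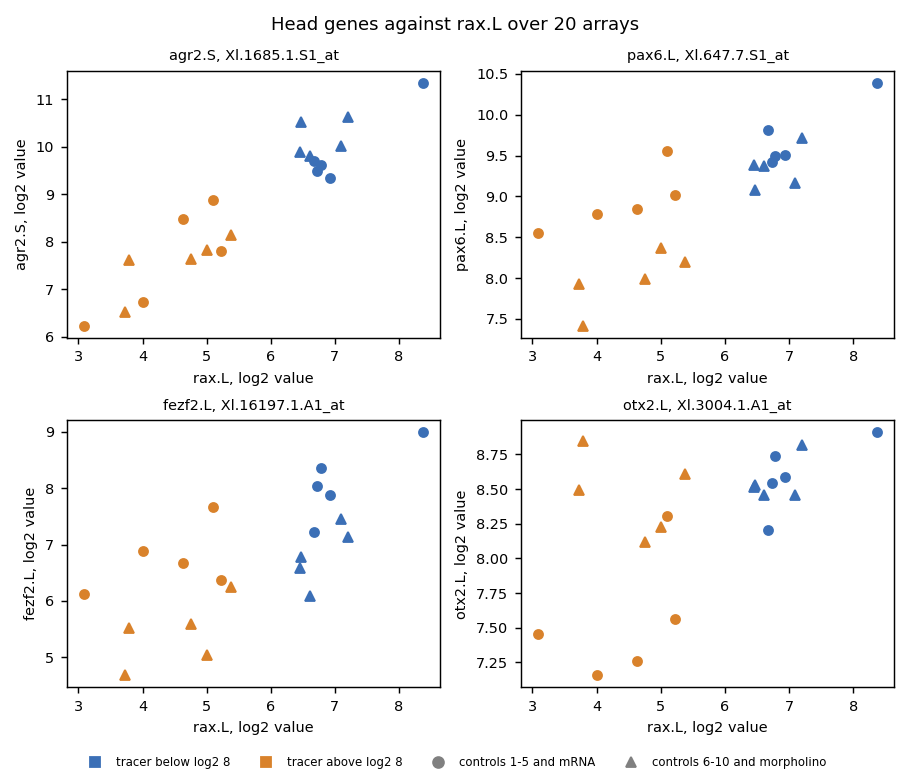
Log2 values of agr2.S, pax6.L, fezf2.L and otx2.L (y axes) against rax.L (x axes) in 20 arrays, coloured by tracer state, with circles for controls 1 to 5 and mRNA arrays and triangles for controls 6 to 10 and arrays labelled morpholino. The first 3 genes fall along with rax.L in both sets, whereas otx2.L is low in mRNA arrays (circles at 7.16 to 8.31) and not in the tracer-positive triangles (8.11 to 8.85).

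Fewer probe sets ran closely with either rax.S probe set. Only named probe sets are ranked here, and 7 without a symbol stood above the fifth named one for S1 and 1 for S2. For S1 the highest named likeness belonged to rcor2.L (0.74 and 0.72), a co-repressor gene of neural progenitors, followed by itgb1bp2.L, znf182, lrch4.L and the muscle acetylcholine receptor gene chrnd.L (smaller correlation 0.65 to 0.69). Of these, lrch4.L was above log2 4 in 7 arrays and chrnd.L in 9. In the second set both were highest in morpholino 2 (4.73 and 6.05), and Spearman's correlation with S1 there was 0.26 and 0.33. Their likeness to S1 therefore rests largely on 1 array in that set. None of 10434 probe sets exceeded 0.8. The most opposite were ddah2.L, rabgap1l.L and slc9a3r1.L, with correlations from -0.72 to -0.65 over both sets. For S2 the likest named one was hesx1.S (0.85 and 0.86, and 0.73 with tracer-state means removed), a homeobox repressor gene of the anterior neural plate, followed by prkab1.S, mrpl37.L, hdgfl2.L and cdc42ep4.L (0.70 to 0.77). The most opposite were abl2.L, bnip3l.L and prmt1.L (-0.86 to -0.69 over both sets). By Spearman's correlation 1 of 5 remained for S1 and 0 of 5 for S2, and in the second set S2 rose above log2 4 in morpholino 3 alone.

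The other genes of the eye field gave a mixed picture beside rax.L. The list held pax6, six3, six6, lhx2, lhx9, tbx2, tbx3, nr2e1, otx2 and fzd5, the receptor gene of a Wnt signal needed for the eye field. Of its 14 measured homeologs 8 passed the filter, and every homeolog measured of six6, lhx2, lhx9, nr2e1 and fzd5 did not. Each gene is given at its brightest probe set. In the paired fit 8 of 8 were below 0, with a median log2 difference of -0.31 against 0.03 over all probe sets, and 0 of 8 passed. At other probe sets pax6.L fell by 1.18 ± 0.11 (the one ending in S1_a_at, SE; limma, adjusted p = 0.0256) and fell by 1.08 ± 0.10 (one ending in S1_x_at; limma, adjusted p = 0.0248). Both pax6.L calls were lost without pair 1, 2 or 4 and without a filter, where the paired fit called 0 probe sets. Against all 10 controls 0 of 8 passed, 6 of 8 being below 0 (median -0.19).

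The six3 and otx2 genes parted from rax.L in different sets. The six3.L probe set, for a homeobox factor of the anterior neural plate, overlapped between controls 1 to 5 (7.24 to 7.60) and mRNA arrays (6.87 to 7.44). In the second set it was at 4.11 to 5.59 with the tracer above log2 8 and at 6.32 to 6.96 below, without overlap. Its correlation with rax.L was 0.70 in the first set and 0.94 in the second, and that of six3.S was 0.62 and 0.58.

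Correlations with rax.L were higher in the first set than in the second for otx2, the head gene that acts upstream of rax. The brighter otx2.L probe set was at 8.21 to 8.91 in controls 1 to 5 and at 7.16 to 8.31 in mRNA arrays, which overlap. In the second set it was at 8.11 to 8.85 with the tracer above log2 8 and at 8.45 to 8.82 below, which overlap as well. It correlated with rax.L at 0.88 in the first set and 0.11 in the second, and otx2.S at 0.75 and -0.42. In the paired fit otx2.L was at -1.05 ± 0.15 and otx2.S at -1.79 ± 0.33 (SE; limma, adjusted p = 0.0947 and 0.169). Between mRNA arrays and those labelled morpholino, where 8.49% of all probe sets were lower, both were lower, otx2.L by -1.01 ± 0.20 and otx2.S by -1.33 ± 0.34 (SE; limma, adjusted p = 0.0156 and 0.0214). With the array set as a block, 0 of 10435 probe sets were called between these groups, otx2 included, and 451 had an unadjusted p under 0.05.

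The T-box genes tbx2 and tbx3, which act in the eye field on BMP signals, did not run with rax.L in both sets. The correlations were -0.07 and 0.15 for tbx2.L, 0.56 and -0.66 for tbx3.L, and 0.62 and -0.45 for tbx3.S. In the paired fit they were at -0.13, -0.25 and -0.28 (limma, adjusted p from 0.488 to 0.693).

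Of the genes known to act on rax (otx2, sox2, sox3, nog and fzd5), 6 of 7 measured homeologs were tested. None passed in the paired fit or against all controls, and 2 of 6 were lower between mRNA arrays and those labelled morpholino, where 8.49% of all were, the otx2 homeologs above. The neural plate factor gene sox2.L correlated with rax.L at 0.44 and 0.66, sox3.S at -0.04 in both sets, sox3.L at -0.28 and 0.39, and nog.L, which encodes the BMP antagonist Noggin, at -0.02 and -0.06. In the paired fit sox2.L was at -0.39 ± 0.23 and nog.L at 0.14 ± 0.22 (SE; limma, adjusted p = 0.445 and 0.793).

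Genes reported downstream of Rx1 were zic2, hes4, cdknx, tle2, neurog2, dll1, tubb2b and several eye field genes. No probe set was found for cdknx, and 13 of 18 measured homeologs of the others were tested. None passed in the paired fit or against all 10 controls, with medians of -0.19 and 0.20. Between mRNA arrays and those labelled morpholino, 1 of 13 was higher, the Hairy-type repressor gene hes4.S (0.67 ± 0.19, SE; limma, adjusted p = 0.0266), where 4.82% of all were, and 2 were lower, both otx2 homeologs, where 8.49% of all were. The hes4.S call was lost with the replicate block (limma, adjusted p = 0.0512). The zic2.L probe set, for a zinc finger factor of the neural plate, was higher in mRNA arrays than in controls 1 to 5 without overlap (9.66 to 9.99 against 9.15 to 9.44), as 0.652% of probe sets were. It correlated with rax.L at -0.86 in the first set and 0.35 in the second, and its paired difference of 0.54 ± 0.11 (SE) did not pass (limma, adjusted p = 0.2).

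Neighbours of the eye field in the anterior neural plate were among the few genes that fell in the paired fit. The list held hesx1, fezf2, otx1, otx2, emx1, emx2, lhx5, arx and nkx2-1. No probe set was found for emx1 or arx, and those of emx2 and nkx2-1 did not pass the filter. Of the 7 tested homeologs of the other genes, 3 were lower in the paired fit, where 0.0671% of all probe sets were. They were hesx1.L, hesx1.S and fezf2.L, with log2 differences of -2.10, -2.09 and -1.35 (limma, adjusted p = 0.0357, 0.0248 and 0.0479). All 3 calls were lost without pair 1, 2 or 4 and without a filter, where this fit called 0 probe sets. In the first set these 3 homeologs correlated with rax.L at 0.85 to 0.87. In the second set fezf2.L did at 0.89, hesx1.S at 0.71 and hesx1.L at 0.05, with hesx1.L at 7.25 to 8.82 where the tracer was above log2 8 and 7.09 to 9.19 where it was below.

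Cement gland genes ran lower with the tracer in both sets, with median differences of -1.36 in the first and -1.82 in the second over the 5 tested homeologs of ag1, agr2 and pitx1. All 5 were lower without overlap in the second set, as 2.87% of all probe sets were, and 1 of 5, agr2.S, was so in the first, as 0.412% were. The difference between the sets was not tested. Their correlations with rax.L ran from 0.70 to 0.95 in the first set and from 0.80 to 0.95 in the second. In the paired fit 0 of 5 passed, with 5 of 5 below 0 and a median of -1.80. The part of other head tissue in the rax.L values was not tested.

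**Figure D5:**
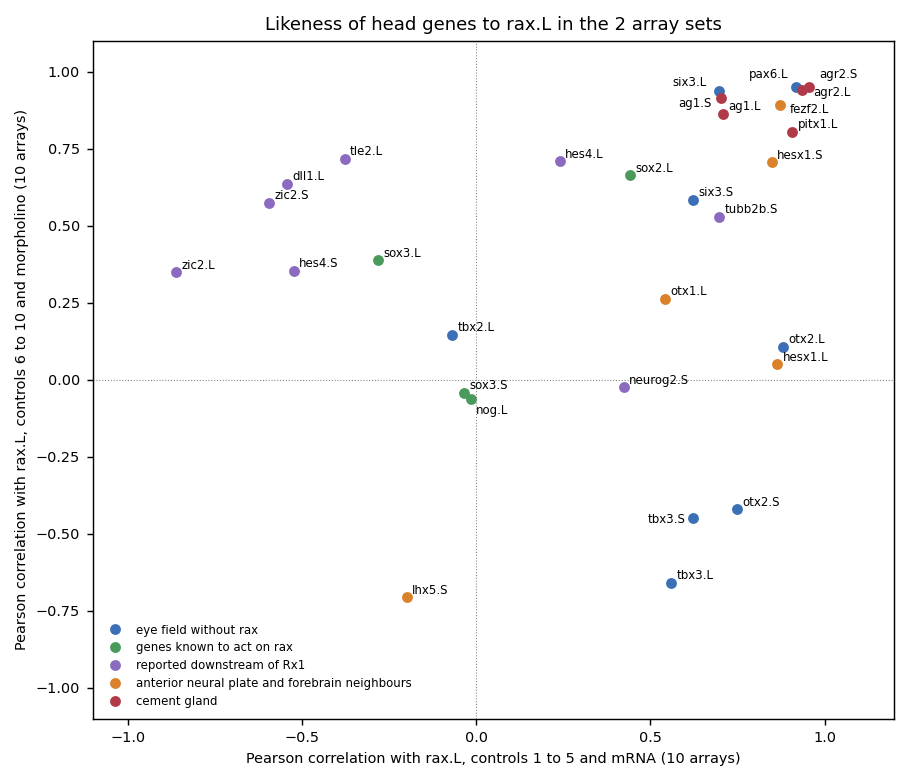
Pearson correlation with rax.L of each tested list gene, at its brightest probe set, over controls 1 to 5 and mRNA arrays (x axis, 10 arrays) and over controls 6 to 10 and arrays labelled morpholino (y axis, 10 arrays), coloured by list. Cement gland genes, pax6.L, six3.L and fezf2.L lie at the upper right, while otx2.L (0.88 and 0.11) and hesx1.L (0.86 and 0.05) lie at the right near 0.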

How the data were processed

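The deposited values are log2 summaries per probe set in 20 arrays. Per the submitters' processing notes they come from GCRMA, of which neither the version nor the arrays normalized as 1 batch is given in the sources used here. Arrays have no read depth, and their number sets the precision. Tests ran without the 120 control probe sets. Group means were fitted over all 20 arrays with limma 3.58.1 in R 4.3.3 (lmFit, eBayes) and adjusted by Benjamini-Hochberg over 10435 probe sets, with a threshold of 0.05. A level is given ± SD and a difference ± SE.

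Same-numbered control and mRNA arrays deviated together in 5 of 5 pairs (correlation of deviations 0.23 to 0.63), so the fit with the number as a block is given beside the result. For morpholino arrays 4 of 5 pairs exceeded 0.1 (0.06 to 0.28), and the block is not. Among controls 1 to 5, the one of the same number correlated best for 4 of 5 mRNA arrays, mRNA 4 being the exception. It did so for 4 of 5 morpholino arrays as well, so this measure does not single out the mRNA pairs. The pairs rest on replicate numbers alone, and the block was taken up after these same data were seen. On simulated data both fits recovered most changes of log2 2, and those of log2 1 were mostly recovered by the 20-array fit and not by the block fit. The simulated spread was that of the 20-array fit, which holds the gap between the 2 sets of controls. In the real data the rax.L difference had an SE of 0.29 in the block fit and 0.64 in the 20-array fit. The simulation therefore does not rank the 2 fits for these arrays.

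The rule named all rax probe sets, the 5 likest and 3 most opposite named probe sets of each, all eye field genes and genes acting on rax, and of other lists those past the threshold. Members, lists and tests were chosen with earlier results of these data known. Where several probe sets of a gene were measured, a list counts the one with the highest mean. A few genes of these lists are not reported here.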

Additional observations from a re-analysis of the deposited data

Results flagged for a closer look

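A gap between 1 array and the rest of its group was large in 2 cases among the rax probe sets, in groups of 5 or 10 arrays where chance marks about 1 group in 20. The rax.L probe set was at 3.73 in morpholino 5, against 6.45 to 7.21 in morpholino 1 to 4. Morpholino 5 is also the only array of its label with the tracer above log2 8. The rax.S S2 probe set was at 4.79 in morpholino 3, against 3.37 to 3.72 in the other 4 arrays of its label.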

How the results depend on the processing

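By label, rax.L in mRNA arrays against all 10 controls kept its sign under every alternative run, but its size depended on the controls. With controls 6 to 10 only it was at -0.70 (limma, adjusted p = 0.433). With controls 1 to 5 only and no block it was at -2.69 and did not pass. It passed with the replicate block (-2.69, where 7 of 10435 probe sets were called) and with array weights (-1.84, where 1242 were). Exact permutation (-1.70) gave p = 0.03, not adjusted over probe sets, where 20.4% had an unadjusted limma p under 0.05. The rax.L difference ranged from -1.95 to -1.37 with 1 array left out (block: -2.98 to -2.46 with 1 pair left out). S1 passed with controls 6 to 10 only (3.37, where 3161 of 10435 probe sets were called), array weights (2.44, 1242 called) and trend and robust (2.41, 20 called). Controls 6 to 10 belong to the other set of arrays, and S1 was under log2 4 in all of them. Exact permutation for S1 (2.41) gave p = 0.000999, not adjusted over probe sets. S1 ranged from 2.13 to 2.66 with 1 array left out (block: 1.17 to 1.60). It passed without control 1, control 4 or mRNA 3, where 577, 314 and 93 probe sets were called. S2 turned to 0.19 with controls 6 to 10 only (-0.81 to -0.38; block: -1.63 to -1.12). Against arrays labelled morpholino, S1 was at 0.66 with the set as a block (2.32 to 2.85 with 1 left out). There rax.L was at 0.67 without the 8 arrays and at -2.31 with weights, called where 2851 of 10435 probe sets were (-2.40 to -1.45 with 1 left out). S2 was at 0.17 without the 8 arrays (-0.41 to 0.070 with 1 left out). For morpholino against controls, rax.L turned to -0.91 with the replicate block or controls 1 to 5 only and to -3.28 without the 8 arrays (-0.17 to 0.70), S1 to 0.78 and S2 to 0.39 with controls 6 to 10 only or the set as a block (-0.44 to 0.054; -0.66 to -0.18), and S2 was called at -1.18 with the replicate block. That last S2 call, in a fit that called 953 of 10435 probe sets, was made against controls 1 to 5, without which S2 would not have passed the filter. The causes of these changes were not tested.

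Within arrays, flipping signs over 5 pairs cannot pass (smallest p = 0.0625, exact): -4.13, -1.32 and 2.82 for rax.L minus S1, rax.L minus S2 and S1 minus S2. With 1 array left out, mRNA against controls 1 to 5 gave -4.44 to -3.91, -1.65 to -1.14 and 2.52 to 3.00, and against all controls -4.41 to -3.88, -1.29 to -0.93 and 2.70 to 3.18. Morpholino gave 0.017 to 0.65, 0.14 to 1.01 and -0.047 to 0.46. Spearman's correlation shared 3, 1 and 0 of 5 likest genes. Probe sets called went from 0 for mRNA against controls to 7 with the replicate block, 20 with trend and robust, 1242 with weights, 3161 with controls 6 to 10 and up to 577 with 1 array left out. Between injections 1389 became 0 with the set block, 760 without the 8 arrays, 2186 unfiltered, 2851 with weights and 314 to 1327 with 1 left out. For morpholino 0 became 953 with the replicate block, 1189 or 1628 against controls 1 to 5 and 495 without the 8 arrays. Signals under log2 4 limit rax.S in the second set.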

Other observations

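With rax.L counted, 5 of 10435 probe sets (0.0479%) were lower with the tracer above log2 8 in both sets of arrays without overlap, and 2 (0.0192%) were higher. Besides rax.L and agr2.S, the named one among the lower was foxd1.L, a forkhead factor gene, named after its values were seen. It was at 2.69 to 4.48 below and 2.26 to 2.55 above the tracer threshold in the first set, and at 3.87 to 6.68 and 1.96 to 3.56 in the second. Its values in the first set lie near or under log2 4. Above the tracer threshold all its values were under log2 4 in both sets, so it passed the filter only through arrays below the threshold. A probe set without a symbol among the 5 did so too, at 2.63 to 3.01 and 3.44 to 3.78 above the threshold. The lack of overlap of these probe sets carries no weight as support. The higher ones were junb.L and nelfa.L, a gene of the negative elongation factor complex of RNA polymerase II. The nelfa.L probe set was at 7.15 to 7.72 below and 7.88 to 8.25 above in the first set, with medians of 8.43 and 9.35 in the second.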
